A study of Macaca mulatta with 24 samples.

Results

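Whole blood of rhesus macaques drawn at day 5 after total-body irradiation with 4 Gy was compared with blood drawn before irradiation. The comparison used 13 of the 24 arrays of the series: 6 at day 5 (4 males and 2 females, replicates 1, 2, 3, 4, 6 and 7) and 7 before irradiation (4 males and 3 females, replicates 1 to 7, dose 0 Gy, labelled day 0). They were chosen by their group labels and not by any measured value. By the study's methods the animals were of Chinese origin, and the ages given there are those of adults. The 6 day 5 arrays carry replicate numbers that pre-irradiation arrays carry too, taken here to mark the same animals. The labels name X-rays, whereas the study's methods name gamma rays from a cobalt source and a first draw before the day of exposure. No unirradiated animal sampled at day 5 was used here, so the exposure and the passage of time cannot be told apart. Blood is a mixture, and on these arrays fewer cells of a type and less RNA per cell of that type cannot be told apart either.

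Each array gave 1 fluorescence signal per probe, an intensity that was taken to log2 and scaled to the median array. A difference of 1 log2 unit is a 2-fold difference, and errors of differences are standard errors from limma over 7 and 6 arrays, or fewer where an outlier spot was left out, as said beside the gene. The share of probes well above background was 49.6 to 53.1% on the pre-irradiation arrays and 51.0 to 61.2% on the day 5 arrays. The arrays were scanned in 2 sessions. Session 1 held pre-irradiation replicates 1, 2, 3, 4, 6 and 7, and session 2 held all 6 day 5 arrays together with pre-irradiation replicate 5. No slide held arrays of both groups. Session and day therefore coincide except for pre-irradiation replicate 5, and the difference between the day 5 mean and that array alone is given below as the within-session difference. That difference uses the same 6 day 5 arrays and is no independent test. With session as a block over all 24 arrays the number of genes called fell from 1697 to 584, of which 521 had been called in the same direction without the block.

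A pair of day 5 arrays stood apart from the others. Day 5 replicate 6 carried strong skeletal muscle signal: the mean over 19 tested muscle genes was 13.21 there, against 7.99 to 8.32 on the other 5 day 5 arrays and 8.19 to 10.66 before irradiation, where replicate 5 was highest at 10.66 and replicate 3 next at 9.41. Of these 19 genes, 16 had their highest signal of the 13 arrays on day 5 replicate 6, and none was called changed. The mean over 13 connective tissue genes was 10.77 on that array, against 7.01 to 7.94 on the other day 5 arrays and 6.94 to 7.65 before irradiation. Of the 13, 1 was called, COL1A2, a chain of collagen I, higher by 2.35 ± 0.48 and by 1.89 without that array (adjusted p = 0.0019 and 0.00076), and not called with session as a block or with normexp correction and median scaling (adjusted p = 0.029 and 0.067). Both lists were drawn up after this array had been seen and carry no test. Day 5 replicate 4 had the highest signal of mitosis, DNA replication and T-cell checkpoint genes, as described with those genes. The part of either array in the results was not tested, and the values that moved most with either array are also given without it.

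**Figure D1:**
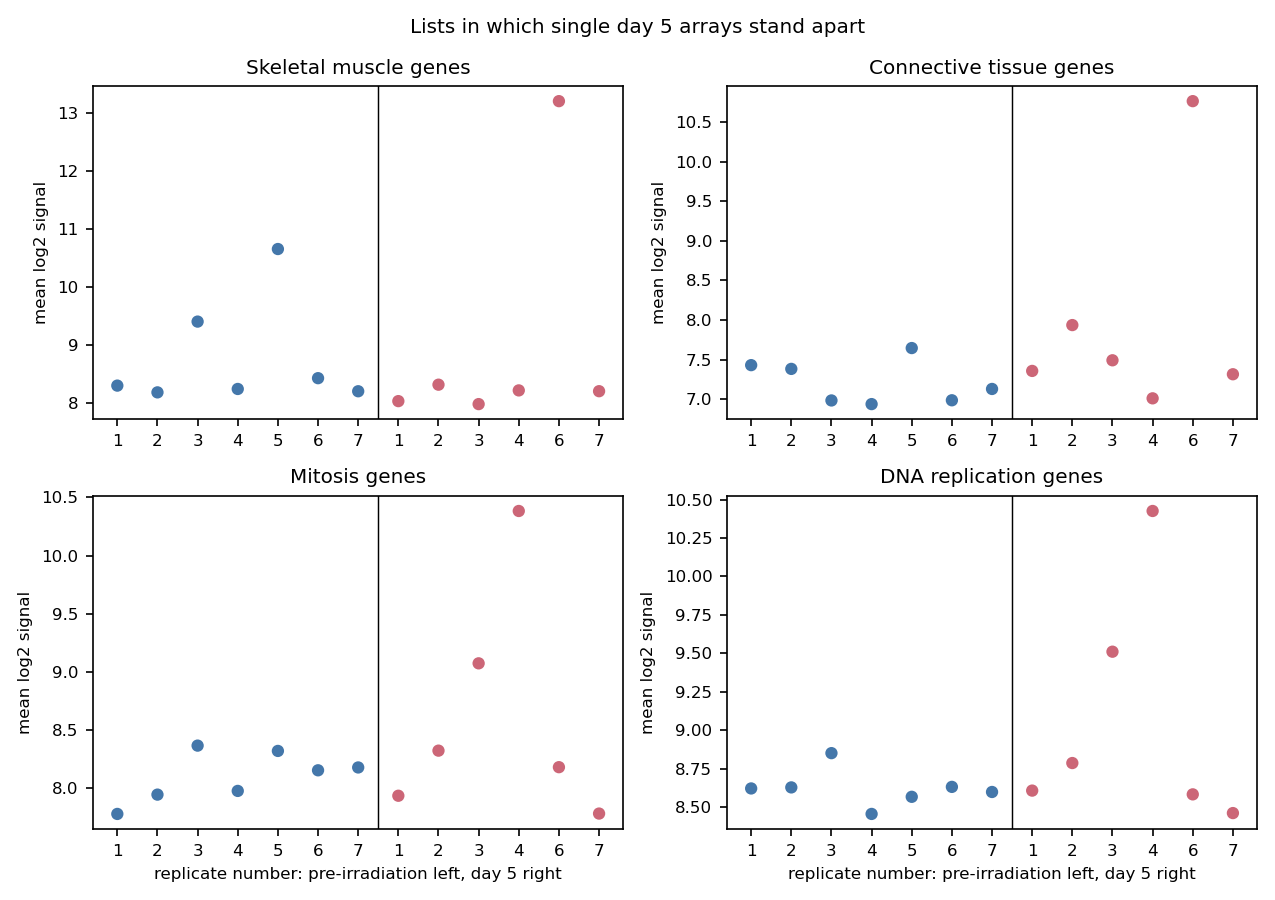
Mean log2 signal (vertical axis) of skeletal muscle, connective tissue, mitosis and DNA replication genes on each array, with 7 pre-irradiation replicates in blue and 6 day 5 replicates in red (horizontal axis, replicate number). Day 5 replicate 6 lies at 13.21 for muscle and 10.77 for connective tissue, and day 5 replicate 4 is highest in both lower panels.

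Blood cells differ widely in their dependence on the marrow. Lymphocytes, B cells above all, die readily after ionizing radiation, whereas neutrophils, platelets and red cells are lost as their supply from dividing marrow progenitors stops. Reticulocytes are the youngest red cells, carry most of the red cell RNA of blood and circulate briefly before they mature and shed it. In cells that survive, damaged DNA activates the transcription factor p53, which switches on genes of cell-cycle arrest, apoptosis and repair.

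At an adjusted p under 0.005, 4543 of 27138 probes tested (16.7%) differed between day 5 and pre-irradiation, 1942 higher and 2601 lower. With 1 probe per named gene, 1697 of 11021 genes (15.4%) were called, 682 higher (6.19%) and 1015 lower (9.21%), and the median difference of all genes was −0.01. More than 2-fold differences were measured for 443 of the genes called higher and 742 of those called lower. In 1480 genes (13.4%) the 2 groups did not overlap. Read by animal, 1645 of the 1697 called genes moved 1 way in all 6 animals with both arrays. Normexp background correction of the mean signals with median scaling called 4 genes higher and 129 lower. With quantile normalization instead, it called 869 higher and 1034 lower. Both settings added an offset of 50 to each corrected signal, where the median processed signal was 30.9 to 105.7 per array. Such an offset narrows log2 differences between dim signals, and its part in the lost calls was not tested. In the setting named below as without the filter on dim probes, the arrays were also scaled over all 43603 probes. The median difference of all genes was then 0.29. The genes are described below by 45 lists of known function or cell of origin, with 1092 tested members of which 317 were called. The plot of list means by array shows which lists separated the groups on every array, and the plot of called shares sets each list against all genes.

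**Figure D2:**
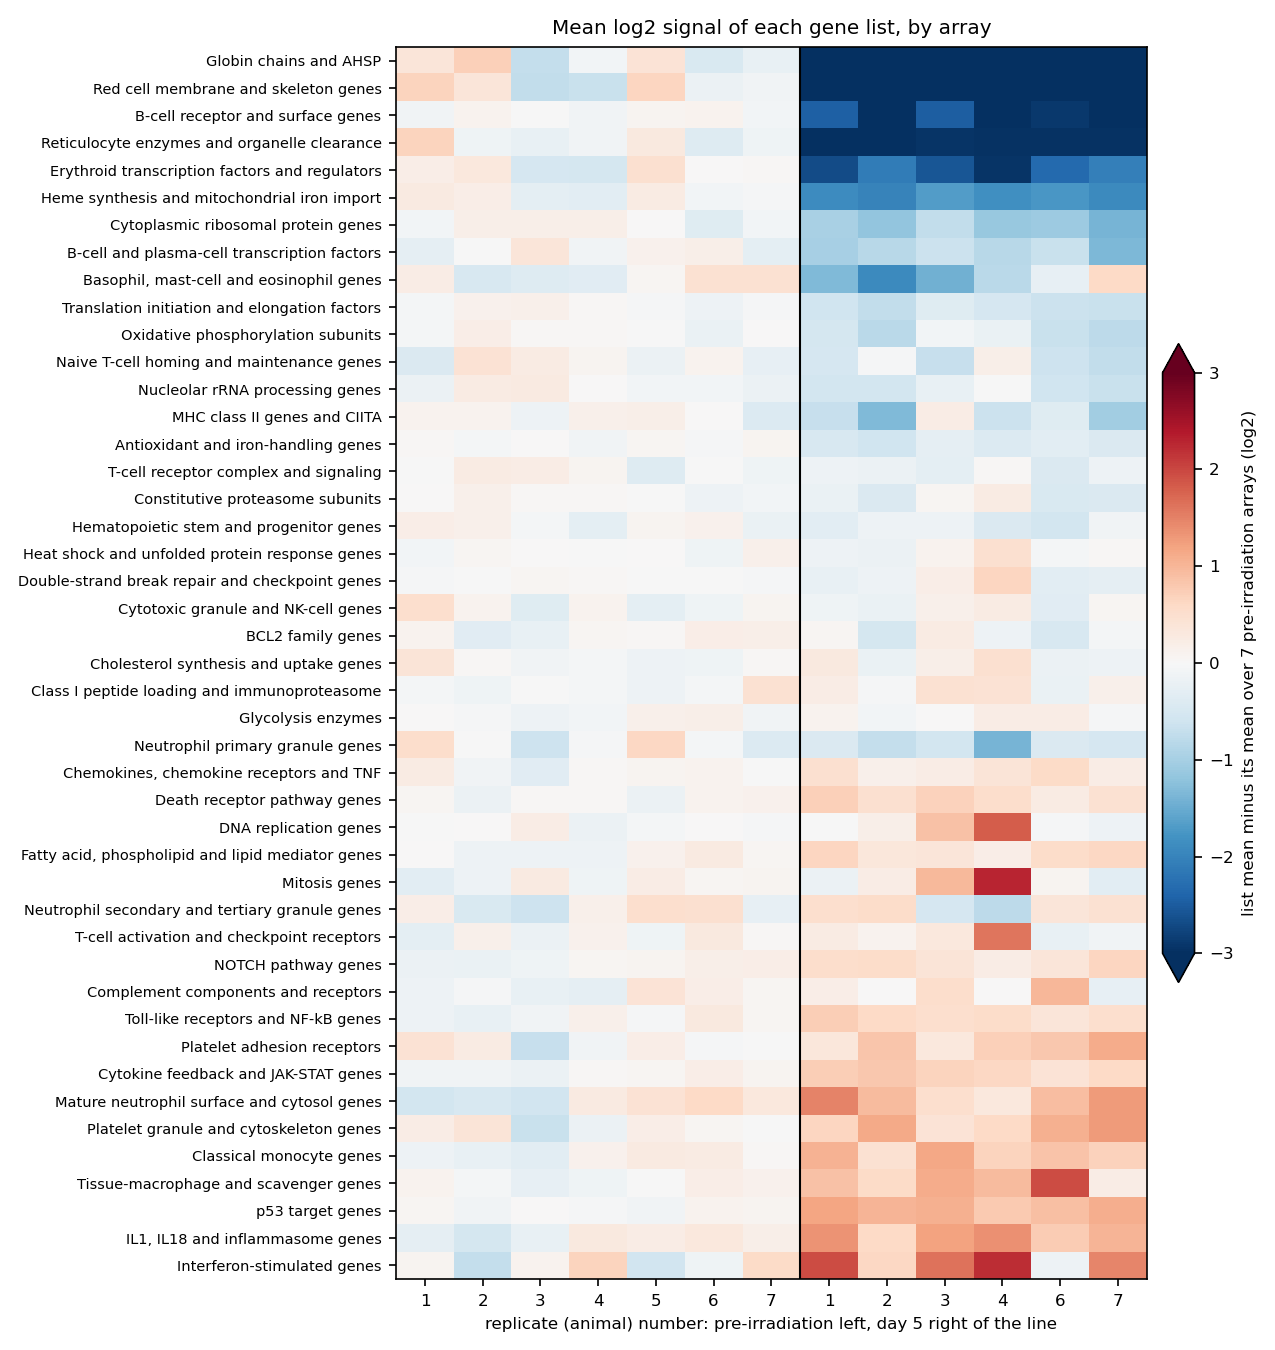
Mean log2 signal of 45 gene lists (rows, ordered by median difference) on 13 arrays (columns), as the difference from each list's mean over the 7 pre-irradiation arrays. Red cell, globin, reticulocyte and B-cell surface lists are lower on all 6 day 5 arrays, while mitosis genes are high mainly on day 5 replicates 4 and 3.

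**Figure D3:**
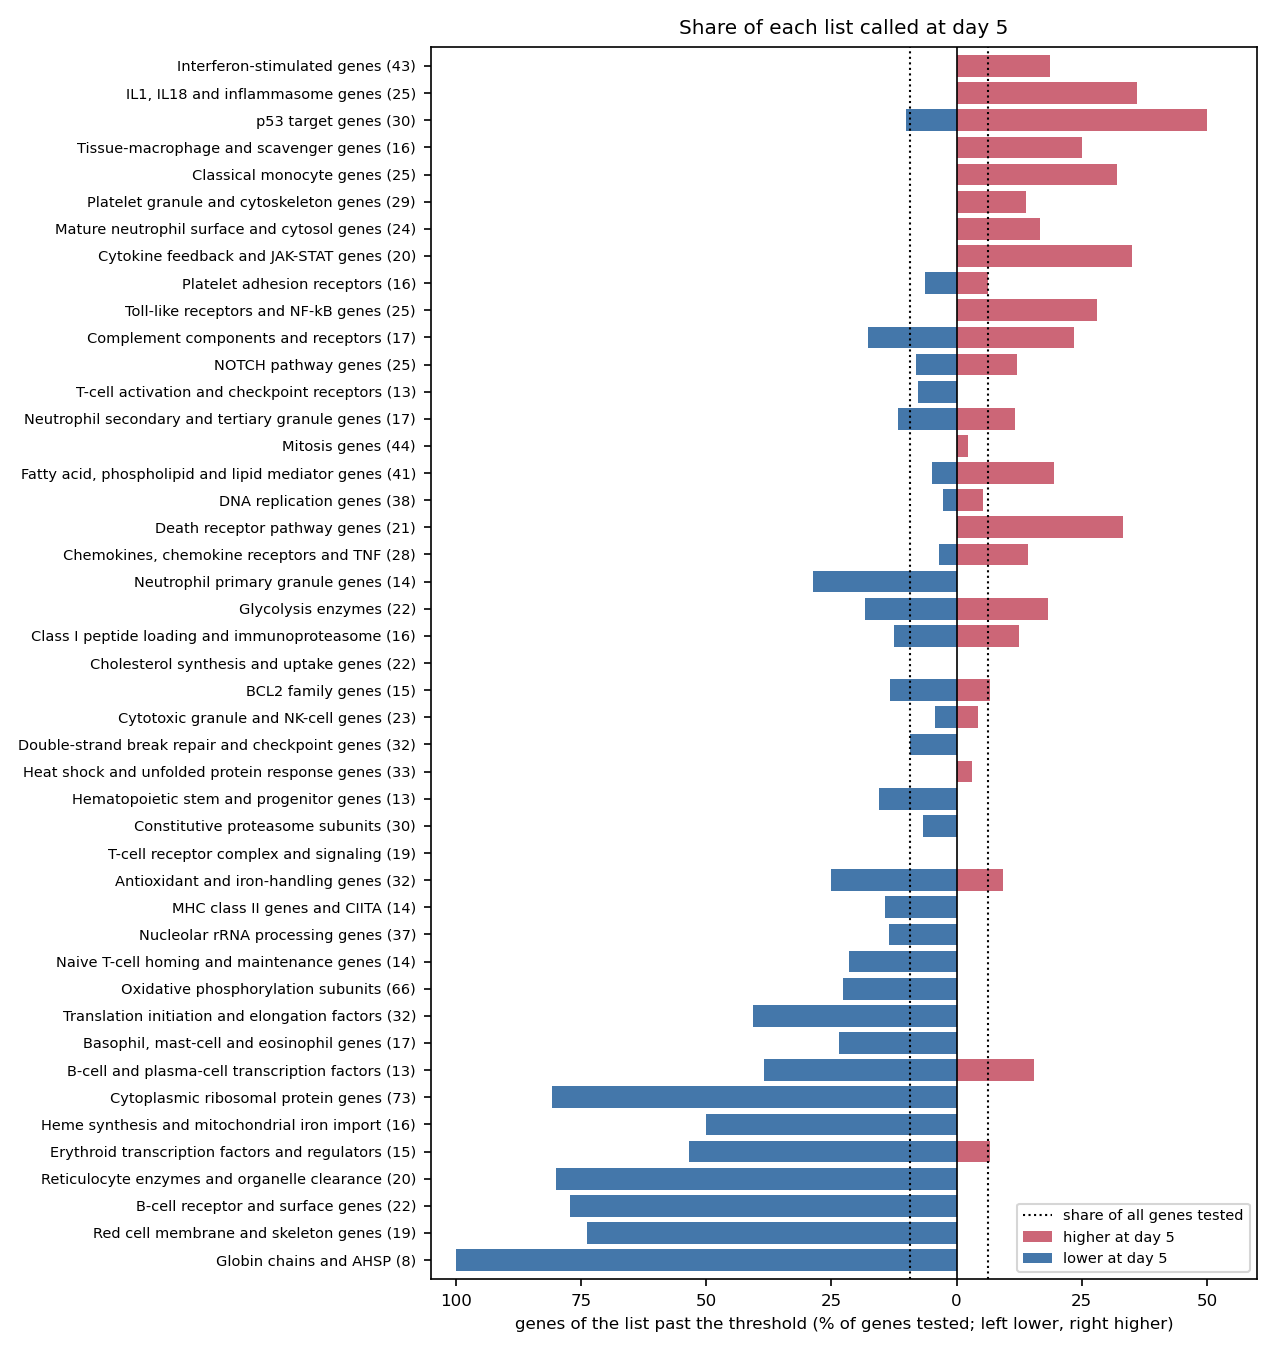
Share of each list's tested genes (number in brackets) called higher (red, right) or lower (blue, left) at day 5, with the shares among all 11021 genes as dotted lines (6.19% and 9.21%). All 8 genes of the globin and AHSP list and 59 of 73 ribosomal protein genes lie on the left, and 15 of 30 p53 target genes on the right.

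The 10 largest falls included genes of red cells. The probe of ALAS2, the first enzyme of heme synthesis in red cells, read 18.05 to 19.20 (median 18.56) before irradiation and 9.72 to 12.26 (median 10.08) at day 5. That is a difference of −8.06 ± 0.36 (adjusted p = 6.9e-09) or 267-fold, with −8.25 within the session, and the groups were far apart. KLF1, the master regulator of red cell genes, read 12.33 to 14.92 (median 13.10) and then 4.54 to 5.84 (median 5.37), a difference of −8.07 ± 0.41, and was well above background on 3 of the 6 day 5 arrays. EPB42, a protein of the red cell membrane, differed by −8.16 ± 0.51 and was well above background on 4 of 6. ACSL6 (an acyl-CoA synthetase), RNF152 (a lysosomal ubiquitin ligase) and PAQR9 (a membrane receptor family member) differed by −8.46, −8.38 and −7.97, and ACSL6 and RNF152 were well above background on 1 of 6 day 5 arrays each, so that these sizes are set against signal near the detection limit. STRADB, a partner of the kinase LKB1, was at least 106-fold lower on 1 of its probes and DNAI2, an axonemal dynein chain, at least 103-fold lower. Here "at least" marks genes that no array of the dimmer group measured well above background, and the fold is then taken against the detection limit of those arrays. With normexp correction and median scaling this probe of STRADB and that of DNAI2 differed by −2.22 and −2.40 and were not called (adjusted p = 0.015 and 0.031), and the differences of ACSL6 and RNF152 were −4.03 and −3.78, whereas that of ALAS2 was −8.00.

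FERD3L, a transcription factor known from the developing nervous system, had the third largest fall. Its signal was 14.85 to 18.33 (median 15.39) before irradiation, highest in replicates 1 and 5, and 7.60 to 8.05 (median 7.75) at day 5. The difference was −8.24 ± 0.50 (adjusted p = 9.6e-08) and −9.72 within the session, and every day 5 array lay below every pre-irradiation array. The start of its probe is shown beside that of ALAS2, so that either can be matched to other transcripts. The first 30 of 60 bases are given, 5′ to 3′ on the transcript strand. The scanner header names the build rheMac2 for the coordinates, which were not checked against a genome here.
ALAS2 (chrX:53323703-53323762, minus strand): gtgagtgggaacgttcctacttcgggaata
FERD3L (chr3:107003620-107003679, plus strand): tgcccttcctggtctggtagtgctggggtg

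The largest rise was that of EDA2R, a p53-induced receptor of the TNF receptor family. It read 3.23 to 5.93 (median 4.90) before irradiation, when 1 of 7 arrays measured it well above background, and 8.16 to 10.55 (median 9.67) at day 5. The difference was 4.67 ± 0.44 (adjusted p = 4.8e-06), 4.43 within the session, with no overlap. COL9A2, a collagen chain, rose by 3.72 ± 0.48, with 3 of 7 pre-irradiation arrays well above background, and P3H2, a collagen-modifying hydroxylase, by at least 11.5-fold. TNFRSF10B, a death receptor for TRAIL, rose by at least 8.86-fold, LYVE1, a hyaluronan receptor of macrophages and lymphatic vessels, by at least 7.07-fold, and CABP5, a calcium-binding protein, by at least 6.91-fold. PHLDA3, a p53 target that restrains AKT, rose by 3.19 ± 0.28, ELOVL3, a fatty acid elongase, by 3.05 ± 0.55 over 5 day 5 arrays, the spot of replicate 1 being an outlier, and SASH1, a scaffold protein, by 2.89 ± 0.39, with 1 of 7 pre-irradiation arrays well above background. PLD4, a lysosomal nuclease, rose by 3.10 ± 0.35 on 1 probe, while its brightest probe differed by −0.59 and was not called (adjusted p = 0.19), so the gene's direction depends on the probe. Of these 10 rises, ELOVL3, SASH1, LYVE1 and this probe of PLD4 were not called with session as a block (adjusted p = 0.059, 0.0065, 0.0070 and 0.030), and within the session ELOVL3 and SASH1 differed by 1.91 and 1.74. With normexp correction and median scaling EDA2R, PHLDA3 and this probe of PLD4 kept their calls at differences of 1.98, 1.51 and 1.90, and the other 7 lost theirs (differences of 1.07 to 1.68, adjusted p = 0.012 to 0.12). Probe starts of EDA2R and of MS4A1, whose fall is described with the B cells, mark the transcripts behind the largest rise and the B-cell result.
EDA2R (chrX:65480691-65480750, minus strand): accgaaagcactggagacagactggagctc
MS4A1 (chr14:13596622-13596681, minus strand): gagactgcacctgatggtaaagatatatga

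Each of the red cell lists held genes called lower. All 8 globin chain and AHSP genes were lower, with a median difference of −4.69. Their mean signal was 15.89 to 17.33 before irradiation and 11.03 to 12.16 at day 5. HBB, beta-globin, read 18.59 to 19.85 (median 19.08) and then 14.71 to 15.78 (median 15.02), a difference of −4.08 ± 0.24. HBA2, alpha-globin, differed by −4.46 ± 0.23, and its probes may share signal with its near-identical copy HBA1. The largest differences in the list were those of HBG2, a fetal globin (−6.14 ± 0.77), HBM, a minor alpha-like globin (−6.00 ± 0.42), and AHSP, the chaperone of alpha-globin (−5.97 ± 0.52). The labels state that globin transcripts were depleted from the RNA before labelling, so these signals are what the depletion left. With session as a block 6 of the 8 kept a call.

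Heme synthesis and mitochondrial iron import genes split. Of 16 tested, 8 were lower and none was called higher, with a median of −1.31. GLRX5, needed for iron-sulfur clusters, read 16.13 to 18.16 (median 16.54) and then 10.65 to 11.87 (median 10.91), a difference of −5.70 ± 0.31, and BLVRB, a biliverdin reductase, differed by −3.16 ± 0.27. SLC25A37, the mitochondrial iron importer mitoferrin, measured 1.15 ± 0.33 (adjusted p = 0.014) and did not pass the threshold. All 8 calls were kept with session as a block.

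Among red cell membrane and skeleton genes 14 of 19 were lower and none higher (median −4.50), 12 were lower with session as a block, and 7 with normexp correction and median scaling (median −1.37). SLC4A1, the anion exchanger of the red cell, read 7.91 to 10.61 (median 8.73) and then 2.15 to 3.73, which is at least 43.4-fold lower. TMOD1, a cap of the membrane skeleton's actin, differed by −6.16 ± 0.48, with 2 of 6 day 5 arrays well above background, and AQP1, a water channel, by −6.10 ± 0.44. Of 20 reticulocyte enzymes and clearance factors 16 were lower (median −2.82), against 12 with session as a block and 7 with normexp correction and median scaling (median −1.59), and their day 5 mean lay within 9.31 to 9.37 on all 6 arrays, against 11.94 to 12.98 before irradiation. BPGM, which makes the regulator of hemoglobin's oxygen affinity, differed by −5.24 ± 0.29, BNIP3L, the receptor for removal of mitochondria, by −3.88 ± 0.29, and CA1, carbonic anhydrase, measured on 6 of 7 pre-irradiation arrays, was at least 11.9-fold lower.

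Erythroid transcription factors were less uniform: 8 of 15 were lower and 1 higher (median −1.52). TAL1, a factor of red cell and stem cell programs, read 15.15 to 16.14 (median 15.37) and then 13.12 to 13.55 (median 13.41), a difference of −2.16 ± 0.18. TRIM58, a ubiquitin ligase of late red cell precursors, differed by −6.06 ± 0.42 and TFDP2, a partner of E2F factors, by −5.68 ± 0.36. GATA1, which red cell, platelet, eosinophil and basophil lineages share, measured −1.09 ± 0.36 (adjusted p = 0.030) and did not pass, whereas without day 5 replicate 7 it did (−1.40, adjusted p = 0.0027). LMO2, a bridging factor that is also expressed in myeloid cells, was the member called higher (1.09), and not with animal or session as a block.

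Some genes that red cells share with other tissues were lower as well. The antiapoptotic gene BCL2L1, which sustains late red cell precursors, differed by −3.76 ± 0.33. In the antioxidant and iron list 8 of 32 genes were lower and 3 higher (median −0.23, and 0.07 without the filter on dim probes), and 1 was higher without day 5 replicate 1 or 7. FTL, ferritin light chain, read 17.82 to 19.00 (median 18.48) and then 15.54 to 16.92 (median 16.24), a difference of −2.33 ± 0.24, and GPX4, a lipid peroxidase, differed by −2.52 ± 0.32. The glucose and monocarboxylate carriers SLC2A1 and SLC16A1 differed by −2.72 ± 0.34 and −4.59 ± 0.48, the former well above background on 1 of 6 day 5 arrays.

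**Figure D4:**
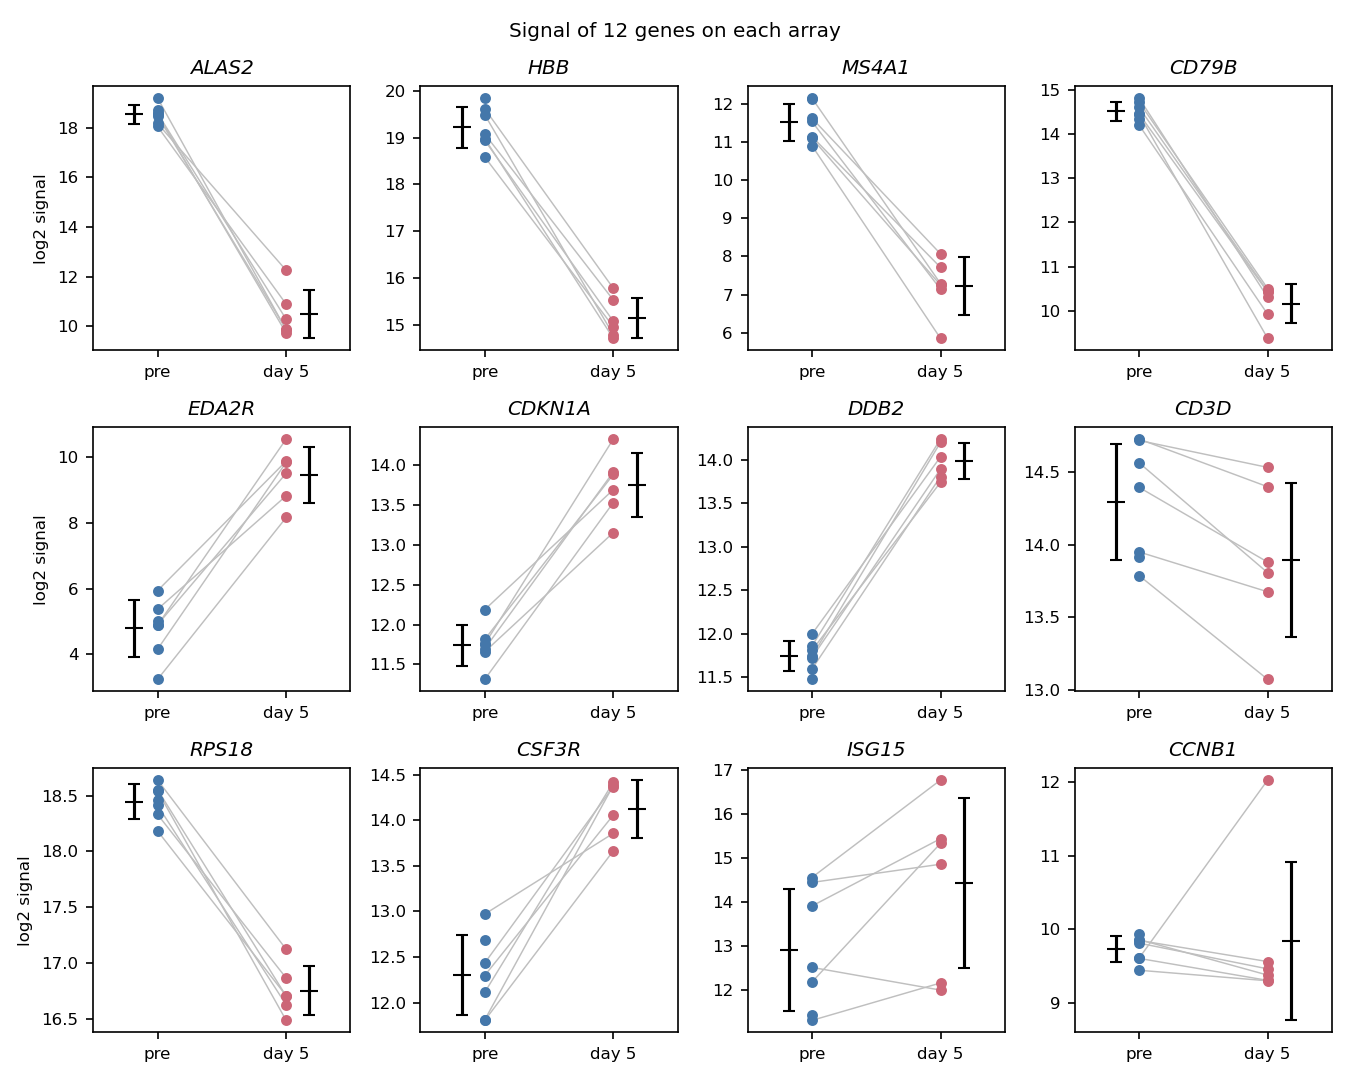
Log2 signal (vertical axes, separate scales) of 12 genes before irradiation (blue, 7 arrays) and at day 5 (red, 6 arrays). Grey lines join arrays of the same animal, and black bars show the mean and SD of each group. Of the 12, CD3D, ISG15 and CCNB1 have overlapping groups, and the high day 5 value of CCNB1 is replicate 4.

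The mean of the B-cell surface genes was lower on all 6 day 5 arrays than on any array before irradiation. Of 22 tested B-cell receptor and surface genes 17 were lower and none was called higher (median −2.94), where 9.21% of all genes were lower. MS4A1, the surface antigen CD20, read 10.92 to 12.16 (median 11.55) before irradiation and 5.85 to 8.07 (median 7.27) at day 5. The difference was −4.31 ± 0.33 (adjusted p = 7.0e-07), 19.8-fold, and −4.92 within the session. CD79B, a signaling chain of the B-cell receptor, read 14.20 to 14.81 and then 9.38 to 10.50 (−4.35 ± 0.19), and its partner CD79A differed by −3.92 ± 0.20. VPREB3, of the pre-B-cell receptor family, was at least 30.4-fold lower. FCRL1 and CD72, receptors that tune B-cell signaling, differed by −4.69 ± 0.29 and −4.41 ± 0.47, with 2 and 1 of 6 day 5 arrays well above background. With session as a block 14 of the 17 kept a call, and 9 genes were lower with normexp correction and median scaling (median −1.43).

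Of 13 tested B-cell and plasma-cell transcription factors and secretory genes 5 were lower and 2 higher (median −0.88). EBF1, which specifies the B lineage, read 7.91 to 8.60 (median 8.05) and then 2.43 to 5.40 (median 4.04), a difference of −4.09 ± 0.37 with 2 of 6 day 5 arrays well above background, and TCF4 differed by −2.18 ± 0.19. TNFRSF17, the plasma-cell receptor BCMA, read 6.51 to 8.85 and then 3.53 to 6.20 (−2.50 ± 0.44). JCHAIN, the joining chain of secreted antibodies, differed by −1.84 ± 0.41 and kept its call in 2 of 13 fits that each left out 1 array. BCL6 and PRDM1, which T cells and myeloid cells also express, were higher (1.25 ± 0.25 and 0.89), and BCL6 lost its call without day 5 replicate 1 (adjusted p = 0.0052) and PRDM1 in 10 of 13 fits that left out 1 array. Neither was called higher with animal or session as a block, 2 of the 5 lower genes kept a call with session as a block, and without day 5 replicate 1 the list held 4 lower genes and none higher. POU2AF1, a B-cell coactivator, measured −1.54 ± 0.40 without day 5 replicate 2, whose spot was an outlier (adjusted p = 0.010, not called), and 0.18 with that spot kept. Without day 5 replicate 4 its difference was −1.96 and passed the threshold (adjusted p = 0.00051).

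Of 19 T-cell receptor genes tested, none was called in the comparison of the groups (median −0.19, −0.01 with session as a block and 0.11 without the filter on dim probes). CD3D, a chain of the receptor complex, read 13.79 to 14.72 (median 14.39) and then 13.07 to 14.53 (median 13.84), a difference of −0.40 ± 0.25 (adjusted p = 0.23), and was lower in all 6 animals. CD3G measured −0.31 ± 0.25 and LCK, the kinase of the receptor, −0.18 ± 0.13. In each fit without day 5 replicate 4 or pre-irradiation replicate 1, 5 or 6, 1 gene was called. With animal as a block CD8B, a chain of the CD8 coreceptor, was called lower (−1.24, adjusted p = 0.0031, against −1.03 ± 0.30 and 0.016 without the block). A count of 0 at the threshold does not show that T-cell RNA was unchanged.

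Naive T-cell genes had 3 of 14 members lower and none called higher (median −0.38), and none kept a call with session as a block. CCR7, which directs naive and memory T cells into lymph nodes, read 15.24 to 17.22 (median 16.15) and then 14.27 to 15.40 (median 14.66), a difference of −1.61 ± 0.31, and −1.20 within the session. IL7R, the receptor of the survival cytokine IL-7, read 13.39 to 14.36 and then 12.06 to 12.82, with no overlap, and differed by −1.25 ± 0.18. LEF1 and TCF7, transcription factors of naive T cells, measured −0.92 ± 0.28 and −0.89 ± 0.26 and did not pass (adjusted p = 0.019 and 0.016).

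In the cytotoxic and NK list 1 gene of 23 was higher and 1 lower (8.70% called, against 15.4% of all genes). The median of 0.11 changed sign with session as a block (−0.08), when none was called. PRF1, perforin, read 15.82 to 16.75 (median 16.26) and then 16.12 to 17.48 (median 16.83), a difference of 0.47 ± 0.24 (adjusted p = 0.13), and GZMB, granzyme B, measured 0.22 ± 0.19. XCL1, a chemokine of NK and CD8 T cells, was lower (−1.43 ± 0.28). CX3CR1, a receptor of patrolling monocytes and cytotoxic cells, was higher (1.25 ± 0.29) and kept its call in 3 of 13 fits that left out 1 array and not with animal as a block. Among 13 checkpoint receptors (median 0.49, −0.01 without day 5 replicate 4) 1 was called, lower (7.69%, against 9.21% of all genes). It was BTLA, a B- and T-cell inhibitory receptor, at −1.52 ± 0.31, a call lost without day 5 replicate 2, 6 or 7 (adjusted p = 0.0055, 0.0056 and 0.0058) or with session as a block. CTLA4 and LAG3, inhibitory receptors of activated T cells, measured 0.49 ± 0.58 and 0.89 ± 0.53, and day 5 replicate 4 was highest for both at 10.54 and 12.80. Without that array their differences were −0.15 and 0.41.

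MHC class II genes, expressed by B cells, monocytes and dendritic cells, included 2 of 14 lower (median −0.32), and 1 was called with session as a block. Both were MAMU-DOA and MAMU-DOB, chains of the class II modulator that is largely restricted to B cells, at −2.90 ± 0.37 and −2.65 ± 0.33. MAMU-DOB read 8.79 to 9.70 before irradiation and 5.68 to 8.06 at day 5, with no overlap. CD74, the invariant chain, read 14.14 to 15.05 (median 14.65) and then 13.14 to 15.38 (median 14.28), which overlap, and measured −0.19 ± 0.31. CIITA, the class II transactivator, measured −0.19 ± 0.31 as well.

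Most ribosomal protein transcripts were lower. Of 73 tested cytoplasmic ribosomal protein genes 59 were lower and none higher (80.8%, against 9.21% of all genes), with a median of −1.15 and a highest member at 0.06. The list mean was 16.72 to 17.27 before irradiation and 15.70 to 16.35 at day 5. RPS18 read 18.18 to 18.64 (median 18.46) and then 16.49 to 17.12 (median 16.71), a difference of −1.69 ± 0.13 (adjusted p = 1.1e-06) and −1.71 within the session. RPS21 differed by −1.75 ± 0.19, and RPS14 and RPLP1 by −1.46 ± 0.13 and −1.57 ± 0.20. The sign of the list median held under every scaling tried, but the count did not: it was 35 after quantile normalization, 29 without the filter on dim probes, 37 with session as a block and 1 with normexp background correction and median scaling.

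Of 32 initiation and elongation factors 13 were lower and none higher (median −0.62), and 7 were lower after quantile normalization, 5 with session as a block and 2 without the filter on dim probes. EEF2, the translocation factor of elongation, read 15.38 to 16.14 (median 15.81) and then 13.03 to 13.70 (median 13.40), a difference of −2.41 ± 0.17, whereas EEF1A1 measured −0.63 ± 0.18 and did not pass (adjusted p = 0.016). EEF1B2 differed by −1.34 ± 0.27. In the nucleolar list 5 of 37 genes were lower (13.5%, against 9.21% of all genes, median −0.38), led by PES1, a factor of large subunit assembly, at −2.33 ± 0.15. The count was 3 without day 5 replicate 1, 2 or 6 or pre-irradiation replicate 2, 3 or 4, 2 with session as a block and 1 without the filter on dim probes. Of 66 oxidative phosphorylation subunits 15 were lower and none higher (median −0.45), with 9 called after quantile normalization, 3 when session was a block and 3 without the dim-probe filter. COX7B, a subunit of cytochrome oxidase, read 11.61 to 13.20 (median 12.07) and then 9.91 to 11.25 (median 10.23), a difference of −2.01 ± 0.28, SDHC, of complex II, differed by −1.74 ± 0.25 and ATP5E, of the ATP synthase, by −1.37 ± 0.23. Constitutive proteasome subunits had 2 of 30 lower (6.67%, against 9.21% of all genes). Their median was −0.12, which was 0.02 after quantile normalization, and 1 was lower in 7 of the 13 fits that left out 1 array.

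Of 30 tested p53 target genes 15 were higher and 3 lower (median 0.96), where 6.19% of all genes were higher. CDKN1A, the cell-cycle inhibitor p21, read 11.31 to 12.19 (median 11.76) before irradiation and 13.15 to 14.33 (median 13.79) at day 5. The difference was 2.01 ± 0.19 (adjusted p = 5.1e-06), 4.02-fold, and 1.99 within the session, with no overlap. DDB2, a damage recognition factor of nucleotide excision repair, read 11.48 to 11.996 and then 13.74 to 14.23 (2.24 ± 0.13), and MDM2, the ubiquitin ligase that limits p53, differed by 1.73 ± 0.22. All 6 day 5 arrays had list means 0.78 to 1.18 above the pre-irradiation mean. The 3 lower members were GADD45A, a stress sensor (−1.84 ± 0.28), ISCU, an iron-sulfur scaffold protein (−0.75), and PLCL2, a regulator of B-cell signaling (−1.07). The calls of ISCU and PLCL2 were kept in 6 and 3 of 13 fits that left out 1 array, PLCL2 lost its call with animal as a block, and 1 member was lower without day 5 replicate 2, 4, 6 or 7 or pre-irradiation replicate 1, 2 or 3. FDXR, a mitochondrial reductase known as a radiation marker in blood, measured 0.39 ± 0.20 and was not called (adjusted p = 0.14). Session as a block left 10 higher and 1 lower, and normexp correction with median scaling 2 higher and none lower (median 0.50).

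Death receptor pathway genes included 7 of 21 higher and none lower (median 0.44). TNFRSF10B read 3.32 to 4.47 (median 3.46) and then 6.58 to 7.50 (median 7.23), with no pre-irradiation array well above background. FAS, the receptor of FAS ligand, read 8.97 to 10.22 and then 10.48 to 11.97 (1.62 ± 0.26), and CFLAR, an inhibitor of caspase-8, differed by 1.13 ± 0.22. With animal as a block 4 were higher, without CFLAR, and 1 lower, and 3 were higher with session as a block. Among 15 BCL2 family genes BCL2 itself was higher (1.06 ± 0.25, kept in 2 of 13 fits that left out 1 array and not with session as a block), BCL2L1 and BNIP3L were lower as above, and BAX measured −0.40 ± 0.37.

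Double-strand break repair and checkpoint genes had 3 of 32 members lower (9.38%, against 9.21% of all genes) and none higher (median 0.05). The lower count was 1 with session as a block or without the filter on dim probes. NBN, a subunit of the MRN break sensor, read 12.68 to 13.65 (median 13.35) and then 10.40 to 11.62 (median 10.997), a difference of −2.29 ± 0.24 and −2.60 within the session. WRN, a helicase, differed by −1.08 ± 0.19. The brightest probe of ATM, the kinase that signals breaks, differed by −1.21 ± 0.24, while another of its probes differed by 0.87 ± 0.17, both with adjusted p = 0.0015. The 2 probes lie on the same transcript, and no single direction of ATM can be given. TAPBP, which loads peptide on class I molecules, showed the same conflict on 3 probes. Those starting at bases 1540 and 832 of their transcripts were higher (1.63 ± 0.21 and 1.43 ± 0.29) and that starting at base 217 was lower (−1.81 ± 0.25). In all, 9 genes had probes called in opposite directions. The first 30 bases of the 5 probes are given so that the transcript forms behind each direction can be traced.
ATM, lower, from base 8787 (chr14:106931893-106931951, plus strand): gagaaaaccatagaagtgatgagaaactct
ATM, higher, from base 2924 (chr14:106849139-106849198, plus strand): tgtgtgttctttgtatcgtcgtgaccaaga
TAPBP, lower, from base 217 (chr4:33028468-33028527, minus strand): atttccaccgcccctcccgtcgccctttgg
TAPBP, higher, from base 1540 (chr4:33018009-33018068, minus strand): acagcataggccttttcctgtctgcctttc
TAPBP, higher, from base 832 of another transcript (chr4:33017751-33017810, minus strand): tctgtatctttcccttgtcactttatctcc

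Cell-cycle genes were high on a pair of day 5 arrays, and few passed the test. Mitosis genes had 1 of 44 members called, higher (2.27%, against 6.19% of all genes), with a median of 0.47. Without day 5 replicate 4 the median was 0.10, and 1 member was called lower and none higher. Their mean lay 2.28 above the pre-irradiation mean on day 5 replicate 4, 0.97 above it on replicate 3 and −0.32 to 0.22 from it on the other 4. CCNB1, the cyclin of mitotic entry, read 9.30 to 9.56 on 5 day 5 arrays and 12.02 on replicate 4, against 9.45 to 9.94 before irradiation. MKI67, a proliferation marker, measured 1.56 ± 0.49 (adjusted p = 0.023), or 1.10 without that array, and TOP2A, a topoisomerase of dividing cells, 1.12 ± 0.49, or 0.66 without it. TACC3, a spindle factor, was the member called (0.75 ± 0.18), kept in 2 of 13 fits that left out 1 array and not with animal or session as a block.

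DNA replication genes had 2 of 38 members higher and 1 lower (7.89% called, against 15.4% of all genes). Their median was 0.46, and 0.18 without day 5 replicate 4. TYMS, thymidylate synthase, read 9.13 to 9.78 (median 9.35) and then 10.96 to 12.90 (median 11.42), with no overlap, a difference of 2.25 ± 0.28 that was 2.004 without replicate 4 (adjusted p = 2.9e-05). Neither higher member was called with session as a block, and for TYMS the adjusted p was then 0.0051. POLD1, the catalytic subunit of polymerase delta, read 12.83 to 13.51 and then 9.31 to 10.39, the opposite direction, at −3.50 ± 0.19. POLA2, of the primase complex, differed by 1.20 ± 0.28 and kept its call in 3 of 13 fits that left out 1 array. PCNA, the sliding clamp and a p53 target, measured 0.77 ± 0.26 (adjusted p = 0.034).

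Monocyte transcripts were higher in part. Of 25 classical monocyte genes 8 were higher and none lower (median 0.90), none kept a call with session as a block, and 2 were lower without day 5 replicate 3. CSF3R, the receptor of G-CSF that monocytes and neutrophils share, read 11.80 to 12.97 (median 12.30) and then 13.66 to 14.42 (median 14.21), a difference of 1.82 ± 0.21 (adjusted p = 3.4e-05) and 1.44 within the session. Its adjusted p with session as a block was 0.0056. MS4A7, a membrane protein of monocytes and macrophages, differed by 1.96 ± 0.30. CD14, a fixed monocyte marker, measured 0.88 ± 0.31 (adjusted p = 0.041, and −0.11 within the session) and did not pass. LYZ, lysozyme, measured −0.61 ± 0.29 and did not pass either.

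Tissue-macrophage and scavenger genes had 4 of 16 members higher and none lower (median 0.92). The list mean was 1.95 above its pre-irradiation level on day 5 replicate 6, the array with muscle signal, and 0.22 to 1.12 above it on the others. LYVE1 read 2.89 to 4.63 (median 3.04) and then 4.87 to 8.93 (median 6.47), highest on replicate 6, and was called with that array and without it (adjusted p = 0.00072 and 0.00092), but not with session as a block (adjusted p = 0.0070). MRC1, the mannose receptor, was at least 3.96-fold higher and was called without replicate 6 (adjusted p = 0.0047), and its highest array was replicate 3 at 8.10. Its call was lost without day 5 replicate 1 (adjusted p = 0.0054) and with session as a block (adjusted p = 0.0072). C1QC, a chain of complement C1q, differed by 2.07 ± 0.46 (adjusted p = 0.0036). Its difference was 2.16 without replicate 6, when the call was lost (adjusted p = 0.0058), and the call was kept in 3 of 13 fits that left out 1 array. The list held 1 higher gene without day 5 replicate 1 and 2 without day 5 replicate 4 or 7 or pre-irradiation replicate 2 or 3. The list held 1 higher gene with session as a block, and 4 higher and 1 lower with animal as a block. CD5L, a secreted macrophage protein, measured 2.41 ± 0.73 (adjusted p = 0.020) and was called with animal as a block (adjusted p = 0.0034) or without pre-irradiation replicate 6 (adjusted p = 0.0050).

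Mature neutrophil genes had 4 of 24 members higher and none lower (median 0.87), 9 were higher after quantile normalization, 8 without the filter on dim probes and 1 with session as a block. FCGR3, a low-affinity IgG receptor placed in this list, read 11.13 to 12.07 (median 11.29) and then 13.14 to 14.65 (median 13.85), a difference of 2.45 ± 0.26. The cells behind the FCGR3 signal were not tested. KCNJ15, a potassium channel of neutrophils, differed by 2.14 ± 0.35. The chemoattractant receptors CXCR2, without the outlier spot of day 5 replicate 2, and FPR1 measured 0.35 ± 0.40 and 0.72 ± 0.34, with overlapping groups, and CXCR2 was −0.56 within the session. CSF3R, also a fixed neutrophil marker, was called higher and is given with the monocyte genes.

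Granule genes, which are transcribed in marrow precursors and not in mature neutrophils, had members of both directions. Of 14 primary granule genes 4 were lower and none was higher, although 8 of the 14 differences were above 0 and the median was 0.34, and −0.49 within the session. MNP1A, a macaque neutrophil defensin, read 11.05 to 14.20 (median 11.70) and then 5.30 to 9.25 (median 8.96), a difference of −4.24 ± 0.72. DEFA4 differed by −4.21 ± 0.84, CTSG, cathepsin G, well above background on 5 of 7 pre-irradiation arrays, was at least 5.56-fold lower, and ELANE, neutrophil elastase, differed by −2.27 ± 0.52, with 3 of 7 pre-irradiation and 1 of 6 day 5 arrays well above background and its call kept in 2 of 13 fits that left out 1 array. All 4 kept their calls with session as a block, and day 5 replicate 4 was lowest for MNP1A, DEFA4 and ELANE. Of 17 secondary and tertiary granule genes 2 were lower and 2 higher (median 0.49, with 12 differences above 0). CRISP3 and TCN1, well above background on 6 and 4 of 7 pre-irradiation arrays, were at least 5.61-fold and 3.86-fold lower, and LCN2, lipocalin-2, and MMP25 were higher by 1.87 ± 0.43 and 1.34 ± 0.28. The calls of TCN1, LCN2 and MMP25 were kept in 6, 5 and 5 of 13 fits that left out 1 array. None of the 4 kept a call with session as a block, and the list had 1 lower gene and none higher without day 5 replicate 1, 6 or 7, and none higher without pre-irradiation replicate 2, 3 or 7. LTF, lactoferrin, measured −1.48 ± 0.45 (adjusted p = 0.021).

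Interferon-stimulated genes varied between animals before irradiation as well as at day 5. Of 43 tested, 8 were higher and none lower (median 1.47). The list mean was 1.45 to 2.21 above its pre-irradiation level on day 5 replicates 1, 3, 4 and 7, 0.63 above it on replicate 2 and −0.16 from it on replicate 6. These values are set against the group and not against each animal's own start, and list means before irradiation ranged from 10.1 to 11.5. MX1 read 11.95 and then 14.285 on replicate 2, and 13.34 and then 13.37 on replicate 6. ISG15, a ubiquitin-like antiviral protein, read 11.31 to 14.55 (median 12.51) before irradiation and 11.99 to 16.76 (median 15.09) at day 5, which overlap, and measured 1.52 ± 0.82 (adjusted p = 0.17). Without day 5 replicate 6, 18 of the 43 were called higher, with animal as a block 11 were, and with session as a block 4 were. The genes that passed included DHX58, a viral RNA sensor (2.18 ± 0.44, lost without day 5 replicate 1 or 7 or pre-irradiation replicate 2), LGALS3BP, a galectin-binding protein (2.05 ± 0.33), and TRIM5, a retroviral restriction factor (1.94 ± 0.21). TRIM5 read 11.43 to 12.26 and then 13.25 to 14.15, with no overlap. MX1, OAS1 and IFIT1, classical interferon targets, measured 1.53 ± 0.63, 1.74 ± 0.68 and 0.59 ± 0.62 and were not called.

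In the class I loading and immunoproteasome list 2 of 16 genes were higher and 2 lower (median 0.28, and −0.25 with normexp background correction and median scaling), and 1 was higher in 11 of the 13 fits that left out 1 array and with animal or session as a block. The lower genes included TAPBP, counted by its brightest probe (−1.81), although other probes of TAPBP were called higher, as given above. NLRC5, the class I transactivator, was higher by 0.99 ± 0.23, read 15.81 on day 5 replicate 6 and 16.50 or more on the other 5, and kept its call in 2 of 13 fits that left out 1 array.

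Some inflammatory sensors and cytokines were higher. In the IL1, IL18 and inflammasome list 9 of 25 genes were higher and none lower, and all 25 had positive differences (median 1.07). IL1B read 8.22 to 9.55 (median 8.60) and then 9.88 to 11.62 (median 10.79), with no overlap, a difference of 1.97 ± 0.28 (adjusted p = 0.00016) and 2.198 within the session. IL18RAP, a receptor chain of IL-18, differed by 1.69 ± 0.38 with its call kept in 4 of 13 fits that left out 1 array, and NAIP, a sensor of bacterial proteins, by 1.60 ± 0.27. Of the 9, 1 kept a call with session as a block.

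Of 25 Toll-like receptor and NF-kB genes 7 were higher and none lower (median 0.59), and 5 were higher and 1 lower with animal as a block. TLR2, TLR5 and TLR6, receptors for bacterial lipoproteins and flagellin, differed by 1.37 ± 0.24, 1.52 ± 0.29 and 1.45 ± 0.30, while NFKBIA, the inhibitor of NF-kB, measured −0.08 ± 0.18. The call of TLR6 was kept in 6 of 13 fits that left out 1 array and not with animal as a block. None of the 7 kept a call with session as a block, and 3 were higher without day 5 replicate 1 or 7 and 4 without day 5 replicate 6 or pre-irradiation replicate 3. The cytokine feedback and JAK-STAT list had 7 of 20 genes higher (median 0.80), 4 with animal as a block or without day 5 replicate 1 and 1 with session as a block. CISH, a feedback inhibitor of cytokine receptors, read 11.34 to 12.18 (median 11.92) and then 13.36 to 14.26 (median 13.64), with no overlap, a difference of 1.93 ± 0.20, and the kinase gene PIM2 differed by 1.06 ± 0.17.

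Of 28 chemokine, chemokine receptor and TNF genes 4 were higher and 1 lower (median 0.34). None was called with session as a block, when the median was −0.04, and 2 were higher in 8 of the 13 fits that left out 1 array. CXCL10, an interferon-induced chemokine, read 6.72 to 9.34 (median 7.76) on 6 pre-irradiation arrays and 9.14 to 12.91 (median 10.34) at day 5. The spot of pre-irradiation replicate 5 was an outlier and left out, so no within-session value exists, and the difference of 2.99 ± 0.66 kept its call in 3 of 13 fits and not with animal as a block. CCL23, a monocyte attractant well above background on 5 of 6 day 5 arrays, was at least 6.52-fold higher and TNF higher by 0.995 ± 0.20. In the complement list 4 of 17 genes were higher and 3 lower (median 0.53). None was higher and 1 lower with session as a block, and 2 were higher without day 5 replicate 3 or 6 or pre-irradiation replicate 1, 2, 3, 4 or 6, with a median of 0.19 without day 5 replicate 6. C3AR1 and C5AR1, receptors for the fragments of complement C3 and C5, went opposite ways: C3AR1 read 10.04 to 11.04 and then 11.98 to 12.49 (1.74 ± 0.18), and C5AR1 read 14.19 to 15.28 and then 12.34 to 12.99 (−2.05 ± 0.20). SERPING1, the C1 inhibitor, read 8.48 to 12.81 at day 5 and differed by 3.46 ± 0.77 (adjusted p = 0.0035). Its difference was 3.35 without replicate 6, when the call was lost (adjusted p = 0.0086), and the call was kept in 5 of 13 fits that left out 1 array and not with animal as a block. C5 itself, measured on 6 of 7 pre-irradiation arrays, was at least 10.6-fold lower.

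Platelet genes measured higher on most arrays and few passed the test. Of 29 granule and cytoskeleton genes 4 were higher and none lower (median 0.89), 12 were higher with animal as a block and none with session as a block. CLU, clusterin of platelet granules, read 9.44 to 11.51 (median 10.54) and then 11.83 to 13.29 (median 12.59), with no overlap, a difference of 2.13 ± 0.36, and VCL, vinculin, differed by 0.997 ± 0.19. TREML1, a receptor of platelet granules, and RGS18, a regulator of platelet G proteins, differed by 1.34 ± 0.31 and 0.85 ± 0.19, and their calls were kept in 2 and 4 of 13 fits that left out 1 array. The count was 2 without day 5 replicate 7 or pre-irradiation replicate 1, 5 or 7. PF4 and PPBP, platelet chemokines, measured 0.46 ± 0.28 and 1.07 ± 0.29 (adjusted p = 0.22 and 0.012), and PPBP passed without pre-irradiation replicate 4 (adjusted p = 0.0032).

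Of 16 platelet adhesion receptors 1 was higher and 1 lower (12.5% called, against 15.4% of all genes, median 0.60). With animal as a block 2 were higher and none lower, and none was called with session as a block. ITGA2B, the fibrinogen receptor chain, read 9.49 to 11.71 (median 11.31) and then 11.82 to 13.35 (median 12.90), a difference of 1.63 ± 0.36 with its call lost without day 5 replicate 2, 4, 6 or 7 or pre-irradiation replicate 4 or 7. TBXA2R, the thromboxane receptor, differed by −1.35 ± 0.24, and was not called with animal as a block (adjusted p = 0.0069). GP9, of the von Willebrand factor receptor, measured 0.03 ± 0.25 (adjusted p = 0.94). Pre-irradiation replicate 3 was lowest of its group for ITGA2B and TREML1.

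Basophil, mast-cell and eosinophil genes had 4 of 17 members lower and none higher (median −0.85, and 0.05 with normexp background correction and median scaling). Of the 4, 1 kept its call with session as a block, and without the filter on dim probes no member was called. The animals differed: the list mean was −0.24 to −1.91 from its pre-irradiation level on 5 day 5 arrays and 0.59 above it on replicate 7. FCER1A, a chain of the IgE receptor, read 8.84 to 10.20 (median 9.67) and then 5.96 to 8.72 (median 7.79), a difference of −1.97 ± 0.40 that lost its call without day 5 replicate 2 or 4 (adjusted p = 0.0054 and 0.00505). HRH4, a histamine receptor of these cells, differed by −2.09 ± 0.46, with 2 of 6 day 5 arrays well above background and its call kept in 6 of 13 fits that left out 1 array, and PRG3, a granule protein of eosinophils, by −1.43 ± 0.25. CPA3, a mast-cell and basophil protease, measured −1.62 ± 0.58 (adjusted p = 0.043). Of 13 stem and progenitor genes 2 were lower, and none with session as a block (median −0.07, and 0.23 without the dim-probe filter): TESPA1, also a T-cell signaling gene, at −1.34 ± 0.19, and AVP, which was well above background on 1 pre-irradiation array and on none at day 5, so that no fold is given.

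Metabolic lists held genes of both directions. Of 22 glycolysis genes 4 were higher and 4 lower (median 0.30). With session as a block none was higher and 2 were lower (median 0.07), and 2 were higher with animal as a block or without day 5 replicate 1 or 2. HK3, the hexokinase of myeloid cells, read 9.09 to 10.63 (median 9.73) and then 11.33 to 12.79 (median 12.19), with no overlap, a difference of 2.35 ± 0.30, and PFKFB3, a regulator of glycolytic rate, differed by 1.57 ± 0.32 in a call lost without day 5 replicate 1 or 2 or pre-irradiation replicate 2 and with animal as a block. LDHA, lactate dehydrogenase, measured 0.08 ± 0.20. The lower members included SLC2A1 and SLC16A1, given with the red cell genes.

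Of 41 fatty acid and lipid mediator genes 8 were higher and 2 lower (median 0.47). ALOX5, which starts leukotriene synthesis, read 9.96 to 11.57 (median 10.28) and then 11.81 to 12.49 (median 12.22), with no overlap, a difference of 1.63 ± 0.24. ACSL1, an acyl-CoA synthetase, was higher by 1.66 ± 0.26, and HADHB, of mitochondrial beta-oxidation, was lower by 1.80 on the log2 scale. FADS2 and LPL, a fatty acid desaturase and lipoprotein lipase, were higher by 1.96 ± 0.44 and 1.75 ± 0.39 with calls kept in 5 and 2 of 13 fits. Higher members numbered 5 without day 5 replicate 1 or pre-irradiation replicate 4, 4 without day 5 replicate 6 or 7 or pre-irradiation replicate 3, and 3 without pre-irradiation replicate 2. No lipid gene was called higher with session as a block, and 2 were lower.

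No gene of 22 in the cholesterol list was called (median 0.19; 1 when day 5 replicate 7 or pre-irradiation replicate 2 or 3 was left out or session was a block). In the heat shock and unfolded protein list 1 of 33 genes was called, higher (3.03%, against 6.19% of all genes). It was ATF3, a stress-induced transcription factor, higher by 2.11 ± 0.35 and not called with session as a block (median of the list −0.06, and 0.03 after quantile normalization). Of 25 NOTCH pathway genes 3 were higher and 2 lower (median 0.53). NOTCH1 and NOTCH2 were higher by 1.11 ± 0.25 and 1.81 ± 0.40, with 1 and 2 of 7 pre-irradiation arrays well above background and calls kept in 2 and 4 of 13 fits that left out 1 array. Both lost their calls with animal or session as a block. In the list 1 was higher without day 5 replicate 1, 2 or 6 or pre-irradiation replicate 2 or 3, and with session as a block none was higher and 1 lower.

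The plot of named genes sets the difference over all arrays against the within-session difference. Both use the same 6 day 5 arrays, and pre-irradiation replicate 5 is 1 of the 7, so their likeness is no independent support. The size of the difference was larger within the session for many red cell genes. It was smaller for FADS2 (1.96 and 0.65) and for GADD45A (−1.84 and −0.85).

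**Figure D5:**
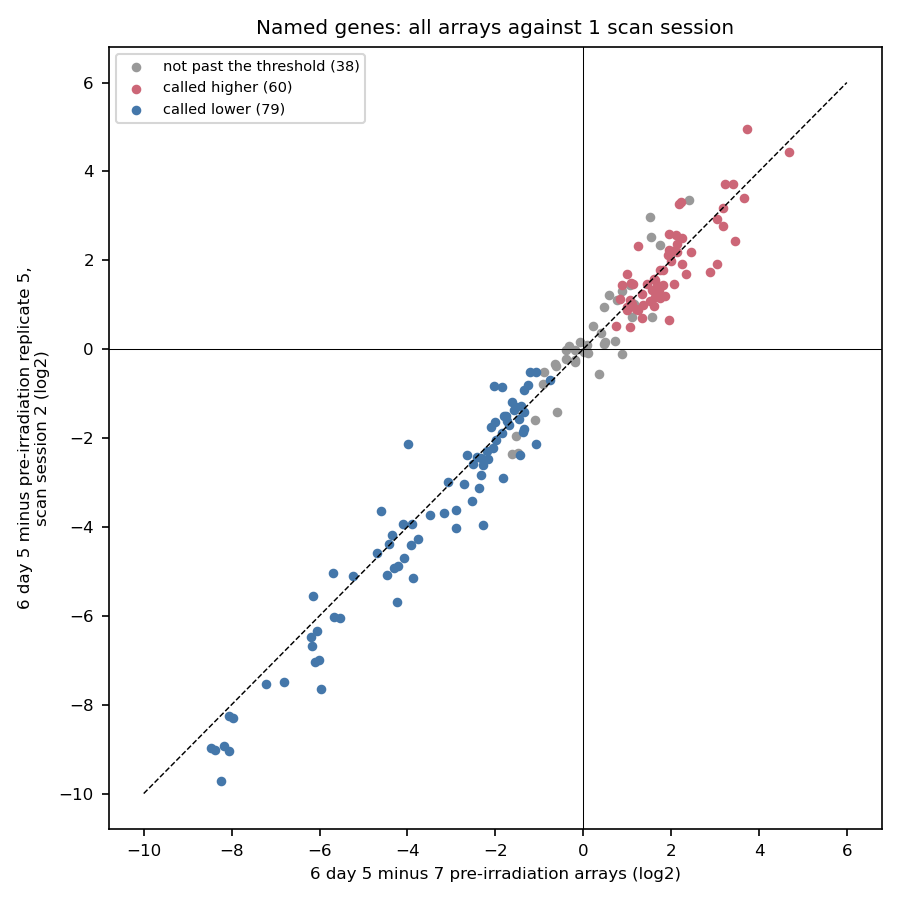
Difference of each named gene between 6 day 5 and 7 pre-irradiation arrays (horizontal axis, log2) and between 6 day 5 arrays and pre-irradiation replicate 5 alone, both from scan session 2 (vertical axis, log2). The dashed line marks equal values, called genes are red for higher and blue for lower, and both axes rest on the same 6 day 5 arrays, with red points right of 0 and blue points left of it.

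The sexes and the next sampling day were compared as well. No probe was called for a difference in response between 4 males and 2 females in limma (0 of 27129, with 790 at an unadjusted p under 0.05), a comparison that few arrays support. Between the 6 day 5 and the 7 day 7 arrays 1 probe was called, that of TMEM140, higher at day 5 by 2.16 (5632 probes had an unadjusted p under 0.05), none with animal as a block (8655) and 5 with session as a block. Session 1 holds 6 of the 7 day 7 arrays, so day and session coincide in that comparison too except for 1 array.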

How the data were processed

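RNA from whole blood of irradiated rhesus macaques was hybridized to Agilent 1-colour arrays, and per the labels globin transcripts were depleted first. The labels name a rhesus array and the methods a human one, and the Feature Extraction version is 10.7 in the submitters' processing notes and 12.0.2.2 in the file headers. The deposited scanner files hold, for each spot, a processed signal, an intensity after background subtraction by the scanner software, with flags for signal well above background, saturation and outliers. The authors also deposited a table of normalized log2 values, which differed from log2 of the processed intensity by 1 constant per array. It was used as an alternative. No column of per-sample values was left unused.

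Processed signals were taken to log2 and scaled to the median array. Control probes and outlier spots were left out, and a probe was tested if 4 or more of the 24 arrays in the whole series measured it well above background (27138 probes), so that arrays of other days carried some probes through (25095 pass on the 13 arrays compared, an alternative). The comparison of 6 day 5 with 7 pre-irradiation arrays was fitted with limma 3.58.1 in R 4.3.3 (lmFit and eBayes, two-sided, Benjamini-Hochberg adjusted p under 0.005, the threshold of the study's methods). Each gene is represented by its brightest tested probe, and no probe's level was set against another's. For a gene that no array of 1 group measured well above background only a limit on the fold is given, namely the brighter group's mean over the mean of, per array, the higher of the lowest well-above-background signal and the probe's own. The fit was tested on simulated data first. The number of arrays limits the precision, with a median standard error of 0.231 log2 units. Each array of a group is a different animal by its replicate number, and p-values measure the spread between these arrays.

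Replicate numbers were taken to mark animals. After group means were removed, same-numbered arrays correlated at 0.171 to 0.454 over 6 pairs (different numbers: median −0.0794, highest 0.271), and 5 of the 6 day 5 arrays correlated best with their own number, the exception being day 5 replicate 6, which was closer to pre-irradiation replicate 5 (0.271) than to its own number (0.232). Every same-numbered pair exceeded 0.1, but some different-numbered pairs did too (up to 0.271), so the correlations alone do not establish the pairing. Arrays of the same number were taken as pairs, and a fit with animal as a block was run as an alternative. Other alternatives were 75th percentile and quantile scaling, normexp background correction with an offset of 50, other filters, scan session or slide as a block, and leaving out each array. In the setting without the filter on dim probes the scaling was redone over all 43603 probes. Named genes were the 10 largest rises and 10 largest falls among called probes of 1 gene symbol whose groups did not overlap and which every array of the brighter group measured well above background, and for each list its fixed markers and the 3 called members with the largest differences, some of which were left out for length or are not reported here. AQP1, C5AR1, CD8B, COL1A2, GADD45A, HBA2, ISCU, JCHAIN, LMO2, MMP25, MNP1A, PLCL2, PRDM1, RGS18 and TMEM140 fall outside this rule and were chosen after their values were seen. The comparison, the lists and the markers were chosen with earlier results of these data known. Figures used matplotlib 3.10.9 in Python 3.11.15.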

Additional observations from a re-analysis of the deposited data

Results flagged for a closer look

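In 446 groups of 6 or 7 values, 1 per array, the highest or lowest array lay far from all others 20 times, judged by its gap over the group's range. Chance flags about 1 in 20 groups. Of the 20, 6 fell on day 5 replicate 4. These were PHLDA3 (8.31, nearest array 9.05), FCRL1 (3.06), CTLA4 (10.54), CCNB1 (12.02), the mean of the T-cell activation and checkpoint receptors (9.92) and the mean of the neutrophil primary granule genes (6.54). On day 5 replicate 6, the array with muscle signal, TLR6 read 10.85 and NLRC5 15.81, both lowest of the group. On the other day 5 arrays LEF1 (14.12) and NOTCH1 (7.28) were highest on replicate 2, COX7B (11.25) was highest on replicate 3 and TNFRSF17 (3.53) lowest on replicate 7.

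Before irradiation BNIP3L (18.37) and the mean of the cholesterol genes (9.53) were highest on replicate 1, and RPS21 (17.34) was highest on replicate 2. ITGA2B (9.49) and TREML1 (9.53) were lowest on replicate 3. On replicate 7 CIITA (5.86) was lowest, while CCL23 (3.37) and the mean of the class I loading genes (14.19) were highest.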

How the results depend on the processing

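The cause of these changes was not tested. The main fit called 4543 probes (1942 higher, 2601 lower). Each other setting was a separate fit, and its count is of all probes called in it. With normexp background correction and median scaling 238 probes were called (7 and 231), and 1475 (357 and 1118) with scan session as a block. With slide as a fixed block 42 were called (7 and 35). Within scan session 2, where the pre-irradiation group is 1 array assumed to vary like the others, 174 were called (10 and 164). The normexp and median scaling, within-session and fixed slide settings were chosen after the data were seen. Under these 4 settings 133, 584, 20 and 98 genes were called in all, and 52, 153, 9 and 34 list genes. Of the 584 genes, 521 were also called in the same direction in the main fit. Without the filter on dim probes the arrays were also scaled over all 43603 probes, so that filter and scaling changed together. In that setting 3047 probes were higher and 1243 lower, and the median of all genes was 0.29. Of its calls 71.0% were higher, against 42.7% in the main fit and 49.2% after quantile normalization. Leaving out 1 array gave 3396 to 4468 probes, 1248 (without day 5 replicate 1) to 2012 higher, 2083 to 2557 lower and 1261 to 1658 genes. With replicate number as a block 4170 probes and 1556 genes were called, and 0 differed between day 5 and day 7. With scan session as a block 5 differed between those days.

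List medians that changed sign included the following, beside those given with their lists above. Without the filter on dim probes they were 0.11 for T-cell receptor genes, 0.23 for stem and progenitor genes, 0.17 for the proteasome, 0.24 for heat shock genes and 0.067 for antioxidant genes. Within session 2 they were 0.26 for T-cell receptor genes, −0.49 for neutrophil primary granule genes, −0.063 for secondary and tertiary granule genes and −0.18 for the BCL2 family. With session as a block they were −0.069 for primary granule genes, −0.15 for secondary and tertiary granule genes and −0.036 for chemokines. With slide as a fixed block they were −0.32 for T-cell checkpoint receptors, −0.32 for primary granule genes, 0.48 for basophil and eosinophil genes, −0.24 for the BCL2 family and −0.13 for cholesterol genes, and PIM2 was −0.15. With normexp and median scaling they were −0.24 for cytotoxic genes, −0.25 for class I loading genes, −0.098 for cholesterol genes and −0.14 for glycolysis, and ELANE (0.15), CTSG (0.083), TCN1 (0.24), TBXA2R (0.028), HRH4 (0.11) and AVP (0.37) changed sign. After quantile normalization they were 0.023 for the proteasome and 0.034 for heat shock genes, and both were also above 0 with normexp and quantile normalization. With replicate number as a block it was −0.072 for cytotoxic genes, which was also below 0 in the authors' normalized values. Leaving out 1 array gave cytotoxic medians from −0.13 (without day 5 replicate 3) to 0.21, and −0.014 for T-cell checkpoint receptors (without day 5 replicate 4).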
